A study of Rattus norvegicus with 2 samples.

Results

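Egr1, Egr2, Egr3 and Egr4, Nr4a1, Nr4a2 and Nr4a3, and Klf2, Klf4 and Klf6 are zinc finger and nuclear receptor transcription factors of the early response. These 10 genes were taken by their symbols from a table of 23188 transcript clusters, which are groups of array probes for a gene or transcript, and each had 1 cluster of its own. The arrays compared tafazzin-deficient C6 TAZ cells with wild-type C6 cells. C6 cells come from a rat glioma, and C6 TAZ cells are C6 cells in which tafazzin, an acyltransferase that remodels the mitochondrial lipid cardiolipin, was knocked out with the CRISPR-Cas9 system. Both were grown in DMEM with 3% FBS and antibiotics, and for each genotype RNA of 3 cultures was pooled and measured on 1 Affymetrix Clariom S rat array. The sources used here do not say whether the C6 TAZ cells are 1 clone. With 1 array per genotype the spread between cultures was not measured, so that every difference here is a description of 2 arrays and has no replicate check. In pooled RNA of a culture, a change in some of the cells and a smaller change in all of them cannot be told apart.

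Immediate-early genes are switched on within minutes of a stimulus such as serum or a growth factor, without the need for new protein. Many of them carry in their promoters a CArG box, which is bound by the serum response factor together with cofactors that the ERK kinase cascade phosphorylates, or a cyclic AMP response element, which is bound by CREB. Their products are mostly short-lived transcription factors that set the later genes of the response. In glia, Egr2 is best known as the factor that Schwann cells need to form myelin.

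Of the 10 factors, 4 had a signal at least 2-fold higher in the C6 TAZ array, none had a signal at least 2-fold lower, and 6 lay within 2-fold. The share of all clusters was 2.34% for a 2-fold higher signal and 2.10% for a 2-fold lower signal. The 4 factors were Egr1, Egr2, Egr3 and Nr4a1. By family these were 3 of 4 Egr genes, 1 of 3 Nr4a genes and 0 of 3 Klf genes. The median log2 difference (C6 TAZ minus C6) was 0.51 over the 10 genes, against 0.00 over all clusters. The smallest of the 4 differences past the 2-fold line was 1.18 for Nr4a1, and the largest of the others was 0.57 for Klf6. The count of 4 includes Egr3, whose log2 signal in the C6 array was dim (5.07).

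The direction of all these differences rests on the headings of the deposited workbook, which are also those of the signals printed in the study. A second deposited table, with a column per sample, held the same signals in 100% of the clusters only after its 2 columns were exchanged, and in 1.16% as labelled. Under the names of that table every difference changes its sign. The knocked-out gene does not settle this. Its cluster (Taz) read 9.84 (log2 signal) in the C6 TAZ array and 10.34 in the C6 array, and the sources used here do not say where its probes lie relative to the edited part.

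**Figure D1:**
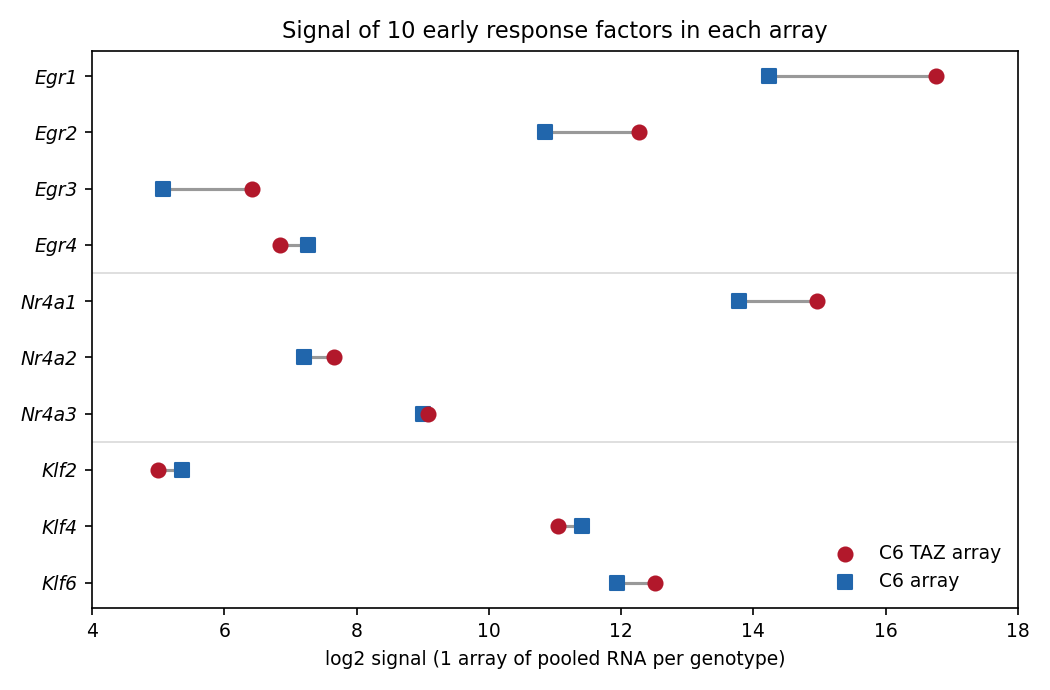
Log2 signal (x axis) of the 10 factors (rows, by family) in the C6 TAZ array (circles) and the C6 array (squares), with a line joining both values of a gene. The distance between the symbols is 2.52 for Egr1 and 0.07 for Nr4a3, and for Egr4, Klf2 and Klf4 the circle lies to the left of the square.

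Egr1, an activator that is among the first genes to answer growth factors, had log2 signals of 16.76 in the C6 TAZ array and 14.24 in the C6 array. The difference of 2.52 on the log2 scale corresponds to a 5.74-fold higher signal in the C6 TAZ array. Only 19 of the 23188 clusters, Egr1 included, had a difference this large or larger. Among the 314 clusters with a mean log2 signal within 0.5 of that of Egr1, 2.23% were higher by 2-fold or more.

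Egr2, also called Krox20, had log2 signals of 12.27 in the C6 TAZ array and 10.85 in the C6 array, a difference of 1.42 (2.68-fold). Egr3, which acts in muscle spindles and lymphocytes, had log2 signals of 6.42 in the C6 TAZ array and 5.07 in the C6 array, a difference of 1.35 (2.55-fold). Its C6 signal lay below the median of all clusters of that array, which was 6.39. With signals under 6 set to 6, the difference of Egr3 was 0.42 and no longer reached 2-fold. Egr4 was the exception in its family. Its log2 signal was 6.84 in the C6 TAZ array and 7.27 in the C6 array, a difference of −0.43, and 15.7% of all clusters had a difference this low or lower.

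The promoter sequences of Egr1, Egr2 and Egr4 are shown because these family members differed in direction and in their motifs. Each run holds the 250 bases before the annotated transcription start in RefSeq (build GRCr8), 5′ to 3′ on the strand of the gene. The arrays are annotated on another build, rn6, so that these positions apply to GRCr8 alone. Capitals mark CArG boxes (CC, a run of A or T, then GG) and the core of the cyclic AMP response element, TGACG on either strand. Only exact matches were counted, so that a CArG-like box with another base within its run is not marked. The runs lie at chr18:26736828-26737077, plus strand, at chr20:21054442-21054691, minus strand, and at chr4:119607818-119608067, minus strand.
Egr1: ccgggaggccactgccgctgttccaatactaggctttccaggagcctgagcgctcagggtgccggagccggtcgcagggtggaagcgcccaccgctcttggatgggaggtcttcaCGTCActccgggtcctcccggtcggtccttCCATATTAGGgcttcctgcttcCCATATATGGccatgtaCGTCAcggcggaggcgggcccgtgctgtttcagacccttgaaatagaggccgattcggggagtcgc
Egr2: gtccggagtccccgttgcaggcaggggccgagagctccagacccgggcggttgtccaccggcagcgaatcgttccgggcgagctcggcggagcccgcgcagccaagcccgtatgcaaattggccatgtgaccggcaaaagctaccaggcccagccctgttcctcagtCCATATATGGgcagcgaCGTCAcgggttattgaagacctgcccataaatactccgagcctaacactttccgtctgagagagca
Egr4: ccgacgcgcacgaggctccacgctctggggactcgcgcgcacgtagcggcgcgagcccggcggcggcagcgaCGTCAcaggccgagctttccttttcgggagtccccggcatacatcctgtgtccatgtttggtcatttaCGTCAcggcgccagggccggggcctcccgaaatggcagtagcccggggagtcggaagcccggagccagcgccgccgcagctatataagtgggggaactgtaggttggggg

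Egr1 had 2 CArG boxes, from −105 to −96 and from −83 to −74, counted back from the transcription start. Egr2 had 1 CArG box, at the same distance as the nearer box of Egr1, from −83 to −74. In both promoters a core of the cyclic AMP response element followed from −66 to −62, and Egr1 had another one from −135 to −131, which makes 2 for Egr1 and 1 for Egr2. Egr4 had no exact CArG box in its window and 2 such cores, from −178 to −174 and from −110 to −106. Its sequence also holds ccatgtttgg, which has a g among the a and t and was not counted as a box. A CArG box was present in 1.64% of the 27457 promoter windows of this kind in the rat table (250 bases before to 50 after the start), and 2 or more were present in 0.0255%. The core of the cyclic AMP response element is much more common and was found in 22% of the windows. Egr3 is not in the promoter table.

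Among the Nr4a genes, which encode orphan nuclear receptors that act without a known ligand, Nr4a1 alone was past 2-fold. Nr4a1 (Nur77) had log2 signals of 14.96 in the C6 TAZ array and 13.78 in the C6 array, a difference of 1.18 (2.27-fold). Of the 549 clusters with a similar mean signal, 1.28% were higher by 2-fold or more. Nr4a2 (Nurr1), a factor of dopamine neurons, had log2 signals of 7.66 in the C6 TAZ array and 7.21 in the C6 array, a difference of 0.45 that 15.7% of all clusters reached or exceeded. Nr4a3 had 9.08 in the C6 TAZ array and 9.01 in the C6 array, a difference of 0.07.

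The promoter of Nr4a1 is shown because this gene was past 2-fold without an exact CArG box in its window (chr7:134259888-134260137, plus strand, GRCr8, capitals as above). Its sequence holds ccttgtatgg, which has a g among the a and t and was not counted as a box. The window starts from an annotated start inside the gene, not from its outermost one, and so does that of Nr4a2. It held 4 cores of the cyclic AMP response element, from −246 to −242, −226 to −222, −82 to −78 and −53 to −49. Nr4a2, whose difference was smaller, had 1 such core, from −8 to −4, and Nr4a3 is not in the promoter table. The share of all windows with 2 or more cores was 5.21%.
Nr4a1: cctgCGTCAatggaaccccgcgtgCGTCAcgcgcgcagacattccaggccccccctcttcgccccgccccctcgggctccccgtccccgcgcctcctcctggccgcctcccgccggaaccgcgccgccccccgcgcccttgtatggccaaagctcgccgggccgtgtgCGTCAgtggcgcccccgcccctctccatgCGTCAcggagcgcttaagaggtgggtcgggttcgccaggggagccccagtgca

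The Klf genes encode Krüppel-like zinc finger factors, and none of the 3 was past 2-fold. Klf6, which answers growth factors and injury, had log2 signals of 12.51 in the C6 TAZ array and 11.94 in the C6 array, a difference of 0.57 (1.49-fold), and 10.6% of all clusters had a difference as large or larger. Klf4, a regulator of epithelial differentiation and stem cells, had 11.04 in the C6 TAZ array and 11.41 in the C6 array, a difference of −0.37. Klf2, known from endothelium under flow, had low signals of 5.00 in the C6 TAZ array and 5.36 in the C6 array, a difference of −0.36. Both of its signals lay under 6, so that no difference was left when such signals were set to 6. A difference as low as that of Klf4 or lower was found in 19.1% of all clusters, and for Klf2 the share was 19.7%.

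Klf6 is shown because it also carried a CArG box, from −201 to −192, without being past 2-fold (chr17:69458479-69458728, minus strand, GRCr8, capitals as above). Klf4 had no exact match to either motif in its window, and Klf2 is not in the promoter table. Only the annotated start in that table was searched, so that a promoter at another start of Klf4 was not covered.
Klf6: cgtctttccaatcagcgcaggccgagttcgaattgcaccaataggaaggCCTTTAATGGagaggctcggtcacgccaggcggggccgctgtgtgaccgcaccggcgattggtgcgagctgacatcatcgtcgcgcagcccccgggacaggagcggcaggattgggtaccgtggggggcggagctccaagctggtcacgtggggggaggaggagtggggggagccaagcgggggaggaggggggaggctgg

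In all, 7 of the 10 factors matched a promoter window. A CArG box was found in 3 of the 7 (Egr1, Egr2 and Klf6) and a core of the cyclic AMP response element in 5 of the 7. These 5 include Nr4a1 and Nr4a2, whose windows use an annotated start inside the gene. The whole element, TGACGTCA, the binding site of Egr factors, GCGTGGGCG, and the site of Nr4a factors, AAAGGTCA, were searched on both strands, as all motifs were, and matched none of the 7, while 1.91%, 0.59% and 1.29% of all windows held them. TGACG is part of TGACGTCA, so that a match to the whole element is also a match to its core. The motifs were searched with the differences known, and a match does not show that a factor binds there.

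**Figure D2:**
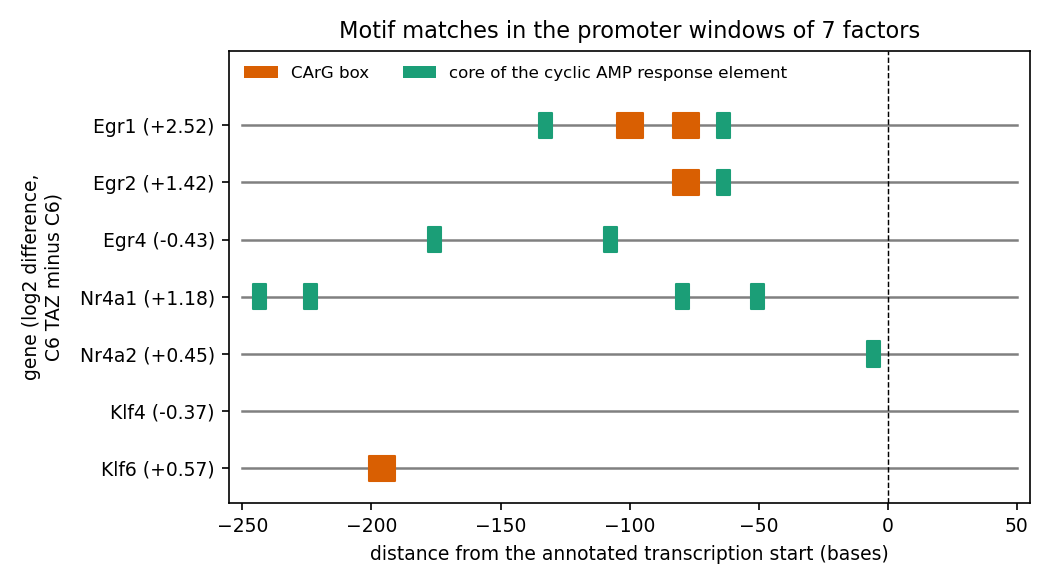
Matches to the CArG box and to the core of the cyclic AMP response element (colours) by distance from the annotated transcription start in bases (x axis) in the windows of 7 factors (rows), with the log2 difference of each in brackets. CArG boxes lie in the windows of Egr1, Egr2 and Klf6, while Nr4a1, Nr4a2 and Egr4 hold only cores and Klf4 holds neither. For Nr4a1 and Nr4a2 the annotated start lies inside the gene.

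The CArG box of Egr1 and Egr2 was also followed across the array. It lay in the window of 174 genes with a cluster of their own, of which 14 had a 2-fold higher signal (8.05%) and 2 a 2-fold lower signal (1.15%), against 2.4% and 1.94% of the 13169 genes with a window and a cluster of their own. Without the factors described here, 12 of 171 were higher (7.02%). The median difference of the 174 genes was −0.07. Few of these 174 genes had 2 boxes in the window. Besides Egr1 they were Dusp5, a phosphatase that switches off ERK (1.64), Srf itself (0.40) and the RNA-binding protein gene Hnrnpd (−0.29). Zfp36, which marks short-lived mRNAs for decay, had 1 box and a difference of 2.78. Its log2 signal was 8.03 in the C6 TAZ array and dim in the C6 array (5.25, under 6). These 4 genes are named after their values were seen. So are Defb33, Ldb3, Il20 and Tmc1 among the higher genes and Hecw1 among the lower, which all had signals under 6 in both arrays. Of the 3618 genes with a core of the cyclic AMP response element, 2.1% had a 2-fold higher and 2.29% a 2-fold lower signal.

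**Figure D3:**
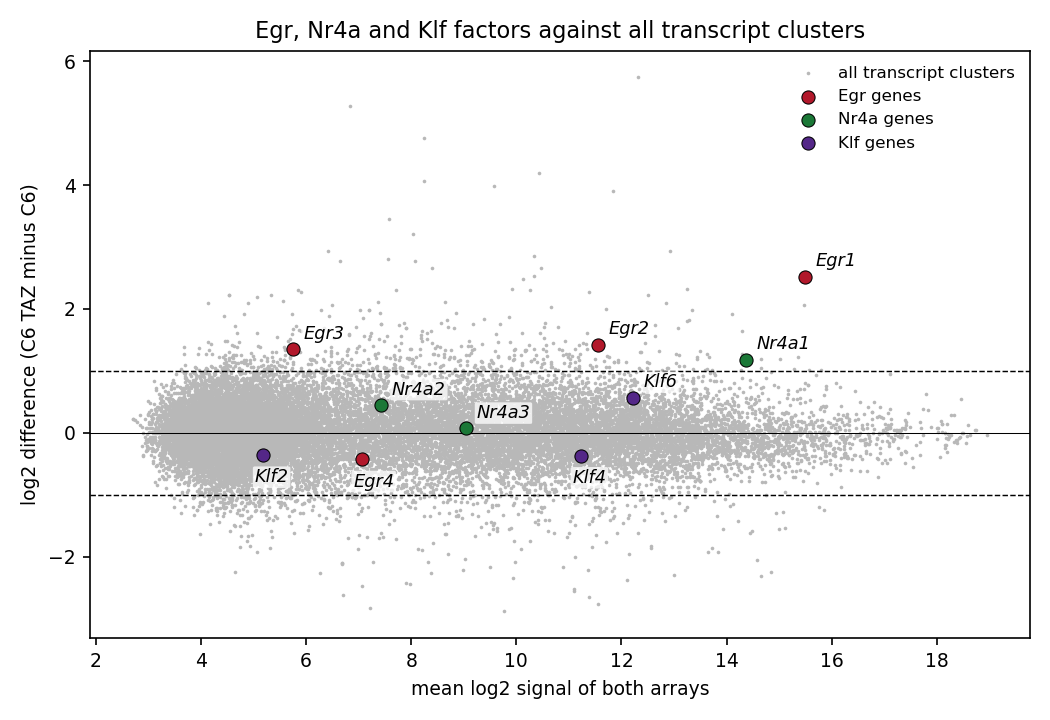
Log2 difference (C6 TAZ minus C6, y axis) against the mean log2 signal of both arrays (x axis) for 23188 transcript clusters (grey) and the 10 factors (coloured by family), with dashed lines at 2-fold. Egr1, at 2.52, stands among few clusters of its brightness, and the 6 factors between the lines run from −0.43 to 0.57.

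The 10 factors lie on 9 rat chromosomes, with Nr4a3 and Klf4 both on chromosome 5. The nearest measured protein-coding genes on each side, by the gene order of GRCr8, gave 20 neighbours, of which 0 were past 2-fold, with differences from −0.70 to 0.58. For Egr1 they were Reep2 (−0.05) and Etf1 (−0.13), and for Egr2 they were Ado (−0.48) and Nrbf2 (0.12). Nr4a1 lay between Acvr1b (0.26) and Atg101 (0.21). The neighbours were chosen after the values of the factors were seen. With 2.34% of all clusters higher and 2.10% lower by 2-fold or more, a count of 0 among 20 is near that share.

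Genes that act upstream of these factors were read from 4 lists, which do not cover every regulator. Of all clusters, 2.34% were higher and 2.10% were lower by 2-fold or more. A count of 0 in a list this short, here or below, is thus near the share of all clusters. None of 13 genes of the ERK cascade was past 2-fold (median −0.04), with the kinase gene Braf at 0.81 and Map2k1, which encodes the kinase MEK1, at −0.65. Of 6 genes for the serum response factor and its cofactors, 1 was lower by 2-fold or more. This was Elk3, a cofactor known to repress such promoters until it is phosphorylated, with log2 signals of 11.82 in the C6 TAZ array and 12.90 in the C6 array (difference −1.08), whereas Elk4 of the same family was at 0.91 and Srf at 0.40. None of 8 genes for CREB and its cofactors was past 2-fold (median 0.26), with the acetyltransferase gene Ep300 at 0.75 and Atf1 at −0.11. None of 7 genes of the ERK5 and MEF2 branch, which acts on Klf2, was past 2-fold either, with Map3k2 at 0.80 and Mef2c at −0.96, read from a cluster that carries a second symbol.

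Partners of the factors were measured as well. Nab1 and Nab2 encode corepressors that bind Egr1, Egr2 and Egr3, and had differences of −0.83 (7.88 in the C6 TAZ array and 8.71 in the C6 array) and −0.28. Rxra, Rxrb and Rxrg encode the retinoid receptors that pair with Nr4a1 and Nr4a2, and lay within 2-fold, with Rxra at 0.33. Of 9 regulators of the Schwann cell lineage that act with or against Egr2, 1 was past 2-fold. This was Id2, an inhibitor of helix-loop-helix factors, at 2.04 (11.68 in the C6 TAZ array and 9.64 in the C6 array). Zeb2 was at 0.85 and Pou3f2 at −0.58. Sox10, which works with Egr2 on myelin genes and is named after its values were seen, was at 0.30. None of the other 14 Klf genes was past 2-fold (median 0.17), with Klf15 at 0.93, Klf10 at 0.81 and Klf7 at −0.23.

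Known targets of the factors were looked up next. Of 16 genes described as targets of Egr1 in other cells, 1 was higher by 2-fold or more and 0 were lower (median 0.07). It was Thbs1, which encodes the matrix protein thrombospondin-1, with log2 signals of 16.50 in the C6 TAZ array and 14.44 in the C6 array (4.17-fold). Pdgfb was at 0.92, Cd44 at 0.78 and Pdgfa at −0.51. None of 10 targets of the Nr4a factors was past 2-fold, and 9 of the 10 had signals under 6 in both arrays, with Spp1 as the exception (−0.34). Of 8 targets of Klf2 and Klf4, the endothelial receptor gene Tek was lower (−1.47) and none was higher, with Cdkn1a at 0.65. The log2 signal of Tek was 7.05 in the C6 array and dim in the C6 TAZ array (5.58, under 6). Of these 8 genes, 4 had signals under 6 in both arrays, and the list includes Klf6, itself among the 10 factors.

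Among 34 other immediate-early genes, a 2-fold higher signal was found for 9 and a 2-fold lower signal for 0 (median 0.51). The shares of all clusters were 2.34% and 2.10%. The differences were 3.91 for Fos and 2.66 for Junb, which join in the factor AP-1, and −0.72 for the kinase gene Plk3. The list also holds phosphatases that switch off ERK and related kinases, of which Dusp1 was at 2.10, Dusp5 at 1.64, Dusp6 at 0.29 and Dusp2 at −0.10. As among the Egr, Nr4a and Klf genes, there were members with nearly equal signals, among them Jun (−0.07), Atf3 (0.02) and Arc (−0.03), which like the phosphatases are named after their values were seen.

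**Figure D4:**
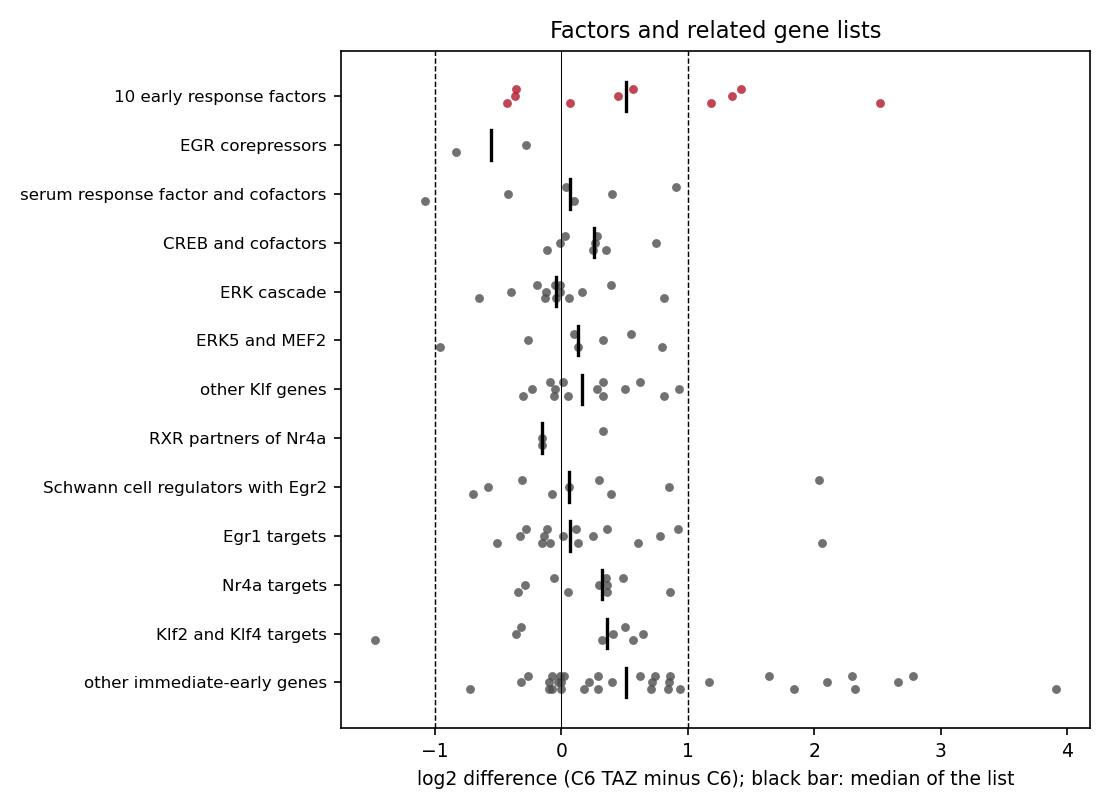
Log2 differences (C6 TAZ minus C6, x axis) of the genes (points) in the set of 10 factors and in lists of related genes (rows), with the median as a black bar and dashed lines at 2-fold. Points to the right of the 2-fold line are found among the 10 factors (4), the other immediate-early genes (9), the Schwann cell regulators (1) and the Egr1 targets (1).

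Of 8 markers of glia and C6 cells none was past 2-fold, and Vim, Nes, Cnp, Cspg4, S100b and Sox9, the last from a shared cluster, had log2 signals from 9.82 to 18.77. The astrocyte markers were dim, with Gfap at 6.38 in the C6 TAZ array and 5.73 in the C6 array, and Slc1a3 at 4.67 in the C6 TAZ array and 3.91 in the C6 array. None of 6 neuron markers was past 2-fold. Of these, 4 were under 6 in both arrays, while Gad1 read 10.45 in the C6 TAZ array and 10.01 in the C6 array, and Snap25 read 9.42 in the C6 TAZ array and 9.65 in the C6 array. None of 6 fibroblast markers was past 2-fold either. Of these, 3 were under 6 in both arrays and Col1a1 and Col1a2 lay near 6. Pdgfra was bright, with 14.61 in the C6 TAZ array and 14.76 in the C6 array. Among 6 macrophage markers, 5 were under 6 in both arrays and Cd68, also a general lysosomal protein, was higher by 2.12, with summed log2 signals of 29.95 in the C6 TAZ array and 27.65 in the C6 array. Among 6 endothelial markers, 4 were under 6 in both arrays and Tek was the single gene past 2-fold, with summed log2 signals of 28.42 in the C6 TAZ array and 30.68 in the C6 array. Their part in the results was not tested.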

How the data were processed

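RNA of 3 cultures per genotype was pooled and hybridised to 1 Affymetrix Clariom S rat array each. Per transcript cluster, the authors deposited a log2 signal (rn6 annotation, per the file headers), which the submitters' processing notes link to Affymetrix Expression Console. The sources used here do not say how probes were summarized or arrays normalized, and no detection value was used. A column of the authors' fold changes and a sheet of peptidases were not used. The methods name an analysis of variance with correction for multiple testing, which cannot be repeated with 1 array per genotype, so no test was made and no p-value is given.

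C6 log2 signals were subtracted from C6 TAZ log2 signals as deposited, and differences were counted at 2-fold or more. A gene was read from clusters that carry its symbol alone, or else from shared clusters, and several clusters were averaged. Signals of different genes come from different probes, and their levels were not ranked, so a planned search for the genes nearest to Egr1 in signal is not reported. Named genes are the 10 factors, up to 3 genes per list with the largest difference at a log2 signal of at least 6 together with the largest in the other direction, tafazzin and cell markers as checks, and genes said to be named after their values were seen. The factors and lists were chosen with earlier results of these data known. Promoters came from RefSeq (GRCr8). Python 3.11.15 with pandas 2.3.3 and numpy 2.4.6 was used, and the counting was tested on simulated data.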

Additional observations from a re-analysis of the deposited data

How the results depend on the processing

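Quantile normalization, centring on ribosomal protein genes or on the overall median, and use of the brightest cluster of a gene moved the difference of no factor by more than 0.06 and changed no sign. They left Egr1, Egr2, Egr3 and Nr4a1 past 2-fold. With the names of the per-sample table, 0 factors had a 2-fold higher and 4 a 2-fold lower signal, the median was −0.51, and Egr1 was at −2.52, Egr2 at −1.42, Egr3 at −1.35 and Nr4a1 at −1.18, because that table holds the columns exchanged. At 4-fold only Egr1 remained (1 factor), since the threshold is higher, and at 1.5-fold the count stayed at 4. With signals under 6 set to 6, 3 factors were higher. The mean in place of the median was 0.64. With a minimum log2 signal of 8, 308 clusters were higher and 242 lower, against 543 and 487 of all clusters, as fewer were counted. In the lists of related genes, 32 genes were higher and 7 lower at 1.5-fold, against 11 and 2 of 126 at 2-fold. Leaving the factors out of the genes with a CArG box was chosen after seeing the data. No paired analysis was possible because each genotype has 1 array. Precision is limited by the number of arrays, and Klf2 and Egr3 had dim signals.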
